A study of Homo sapiens with 12 samples.

Results

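The replication-dependent histone genes lie in dense clusters on human chromosomes 6 and 1, and the KDM2B binding sites mapped there in 7 leukaemia cell lines are described here. The members were chosen by position (hg19): every peak that overlaps chromosome 6 from 26.00 to 26.30 Mb (the proximal HIST1 interval, band 6p22.2), chromosome 6 from 27.07 to 27.90 Mb (the distal HIST1 interval, band 6p22.1) or chromosome 1 from 149.75 to 149.88 Mb (the HIST2 interval, band 1q21.2). The clusters were picked from the peak numbers of these lists, since band 6p22.2 had more peaks in every line of T-cell acute lymphoblastic leukaemia (T-ALL). That contrast is therefore described with no test in the proximal interval. The rule found 180 peaks among the 79473 of all lists, with 85 in the proximal HIST1, 77 in the distal HIST1 and 18 in the HIST2 interval.

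KDM2B binding was mapped by ChIP-seq (sequencing of the DNA bound by a protein after chromatin immunoprecipitation) with an antibody from Millipore, in 1 library per line, and each library gave 1 peak list. The T-ALL lines were SIL-ALL, JURKAT, HPB-ALL and DND41. SUP-B15 and REH derive from B-cell precursor leukaemia, and K562 is a myeloid line. These lineages are background knowledge, since the labels give the line only, and the labels name no treatment. Input libraries are labelled for all lines but DND41 and JURKAT. The lists held 5942 to 15304 peaks, the read depth behind them is unknown, and with 1 list per line a line cannot be told apart from its library. The p-values measure the spread between lines.

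Replication-dependent histone genes are short, have no introns and are transcribed in S phase, when new DNA has to be packed into nucleosomes. The core histones H2A, H2B, H3 and H4 form the nucleosome and the linker histone H1 binds the DNA between nucleosomes. Many near-identical copies of each gene stand side by side, often as divergent pairs that share a promoter. KDM2B is a histone demethylase with a CXXC zinc finger that binds CpG dinucleotides without DNA methylation, and it brings a variant Polycomb repressive complex to chromatin.

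The RefSeq gene table (GRCh38.p14), used here for names and order only, lists 64 protein-coding histone genes in these clusters. The proximal HIST1 cluster holds 32 of them (5 H1, 4 H2A, 8 H2B, 7 H3 and 8 H4 genes), the distal HIST1 cluster 21 and the HIST2 cluster 11. For each family, the proximal gene that comes first in gene order and has a promoter in the RefSeq table (GRCh38.p14) is shown with the 250 bases before its start, 5′ to 3′ on the gene's strand (plus for H3C1, minus for the others). Capitals mark each CpG, the dinucleotide that the CXXC finger recognises. The lists are in hg19, another build, so no peak was assigned to any of these promoters.
H1-1: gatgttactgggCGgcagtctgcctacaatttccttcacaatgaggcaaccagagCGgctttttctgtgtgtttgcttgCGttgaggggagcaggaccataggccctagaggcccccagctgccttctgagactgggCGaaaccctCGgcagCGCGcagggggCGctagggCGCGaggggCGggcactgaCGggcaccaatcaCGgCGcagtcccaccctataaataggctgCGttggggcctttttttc
H2AC4: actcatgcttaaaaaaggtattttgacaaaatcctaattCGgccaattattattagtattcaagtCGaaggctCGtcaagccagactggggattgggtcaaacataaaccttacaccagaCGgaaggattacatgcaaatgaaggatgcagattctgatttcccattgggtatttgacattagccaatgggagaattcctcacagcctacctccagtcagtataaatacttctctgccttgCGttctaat
H2BC3: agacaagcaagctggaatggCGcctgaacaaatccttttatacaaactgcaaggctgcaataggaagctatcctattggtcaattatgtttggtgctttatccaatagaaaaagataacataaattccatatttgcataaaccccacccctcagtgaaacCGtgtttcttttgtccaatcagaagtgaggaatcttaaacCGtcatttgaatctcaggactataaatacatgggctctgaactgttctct
H3C1: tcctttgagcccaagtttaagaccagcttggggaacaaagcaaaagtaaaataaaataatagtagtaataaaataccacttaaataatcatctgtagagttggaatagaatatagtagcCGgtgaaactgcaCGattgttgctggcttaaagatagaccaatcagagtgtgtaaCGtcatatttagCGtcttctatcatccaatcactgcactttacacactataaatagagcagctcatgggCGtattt
H4C2: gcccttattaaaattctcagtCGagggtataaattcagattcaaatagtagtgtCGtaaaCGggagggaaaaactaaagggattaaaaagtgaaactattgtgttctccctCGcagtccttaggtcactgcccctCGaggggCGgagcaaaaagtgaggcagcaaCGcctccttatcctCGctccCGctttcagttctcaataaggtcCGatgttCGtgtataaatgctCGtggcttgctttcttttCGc

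Every histone family had a median below that of all promoters in CpG number. H1-1, a linker histone gene, had 15 CpG dinucleotides in this window and H4C2, an H4 gene, had 13. The promoters of H2AC4 and H3C1 had 5 each and that of H2BC3 had 3. Of the 64 histone genes 59 matched a promoter, and their median was 9 CpG (range 3 to 22), against 17 (range 0 to 59) for 15843 promoters of protein-coding genes. By family the median was 11 for H1, 8.5 for H2A, 6.5 for H2B, 5 for H3 and 13 for H4. By cluster it was 6 in proximal HIST1, 10 in distal HIST1 and 14 in HIST2.

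Other promoter letters differed by family in the same 250-base window, searched on both strands. The CCAAT box (CCAAT) was found in 84.7% of the histone promoters and 34.5% of all protein-coding promoters, and in 3 of 12 H4 promoters. The TATA box (TATAAA) was found in 66.1% against 9.23%. The octamer (ATTTGCAT), background knowledge of which ties it to H2B genes, was found in 13 of 16 H2B and 10 of 14 H2A promoters, in 1 of 11 H3 promoters and in no H1 or H4 promoter of the table, against 1.65% of all protein-coding promoters. These are matches of letters and say nothing of what binds there.

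**Figure D1:**
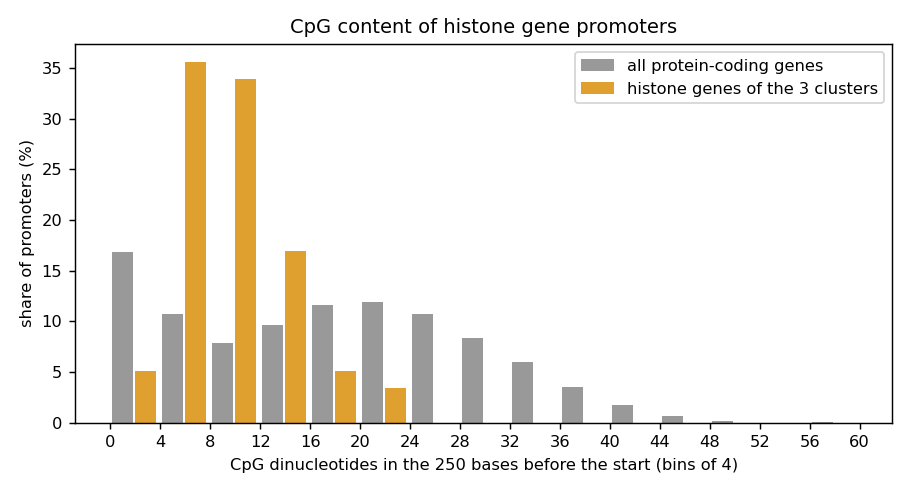
Share of promoters (y axis, %) by the number of CpG dinucleotides in the 250 bases before the start (x axis, bins of 4), for 59 histone genes of the clusters and 15843 protein-coding genes. The histone promoters reach at most 22 CpG, and their median is 9 against 17.

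In peak number the proximal HIST1 interval separated the T-ALL lines from the others. SIL-ALL had 27 peaks there, HPB-ALL 22, JURKAT 20 and DND41 11, whereas REH had 3, K562 2 and SUP-B15 none. The T-ALL lines and the other lines did not overlap, with means of 20 ± 6.68 peaks (SD, n = 4) and 1.67 ± 1.53 (SD, n = 3). As a share of the list, which allows for the longer T-ALL lists, the interval took 0.176% in SIL-ALL, 0.172% in HPB-ALL, 0.135% in JURKAT and 0.0736% in DND41. REH followed at 0.0368% and K562 at 0.0337%. The Wilson 95% intervals, which cover counting error only, ran from 0.0411 to 0.132% in DND41 and from 0.0125 to 0.108% in REH and so overlapped, whereas that of SIL-ALL ran from 0.121 to 0.257%. These values show the contrast by which the clusters were picked and carry no test.

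DND41 lay with the other lines once the lists had the same length. With each list cut to its 5942 top-scored peaks, as many as K562 has, HPB-ALL kept 12 proximal peaks, JURKAT 8 and SIL-ALL 6, while DND41, K562 and REH had 2 each and SUP-B15 none. The mean difference between T-ALL and other lines was then 5.67 peaks in place of 18.3. The lists also start at different scores, from 50 in K562 and SUP-B15 to 80.03 in SIL-ALL. Above that score, common to all lists, the interval held 6, 22, 9 and 27 peaks in DND41, HPB-ALL, JURKAT and SIL-ALL, 1 in K562 and none in REH and SUP-B15. HPB-ALL thus had the highest count in lists of equal length, and SIL-ALL had it in the lists as deposited. SIL-ALL also came first above the common score. That score is the lowest of its own list, so it lost no peak and this place was fixed in advance.

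The distal HIST1 interval was nearly as rich in number but is longer. SIL-ALL had 27 peaks there, JURKAT 19, HPB-ALL 15, DND41 9, K562 5 and REH and SUP-B15 1 each. Its share of the list averaged 0.121 ± 0.0477% in T-ALL lines (SD, n = 4) and 0.0366 ± 0.0412% in the others (SD, n = 3). K562, at 0.0841%, lay above DND41, at 0.0602%, so the groups overlapped. The difference of 0.0840 percentage points did not pass the threshold of 0.05 (two-sided exact permutation over lines, p = 0.0857, adjusted p = 0.1 over 7 tests).

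The HIST2 interval held few peaks: 4 in HPB-ALL, 6 in JURKAT, 5 in SIL-ALL, 2 in REH, 1 in SUP-B15 and none in K562 and DND41. DND41, a T-ALL line with a list of 14944 peaks, thus had no listed peak where REH, with 8146, had 2. The mean share was 0.0261% in T-ALL lines and 0.0126% elsewhere. The difference of 0.0135 percentage points missed the threshold (two-sided exact permutation, p = 0.343, adjusted p = 0.343). With lists of equal length the difference was 0 (exact permutation p = 1).

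**Figure D2:**
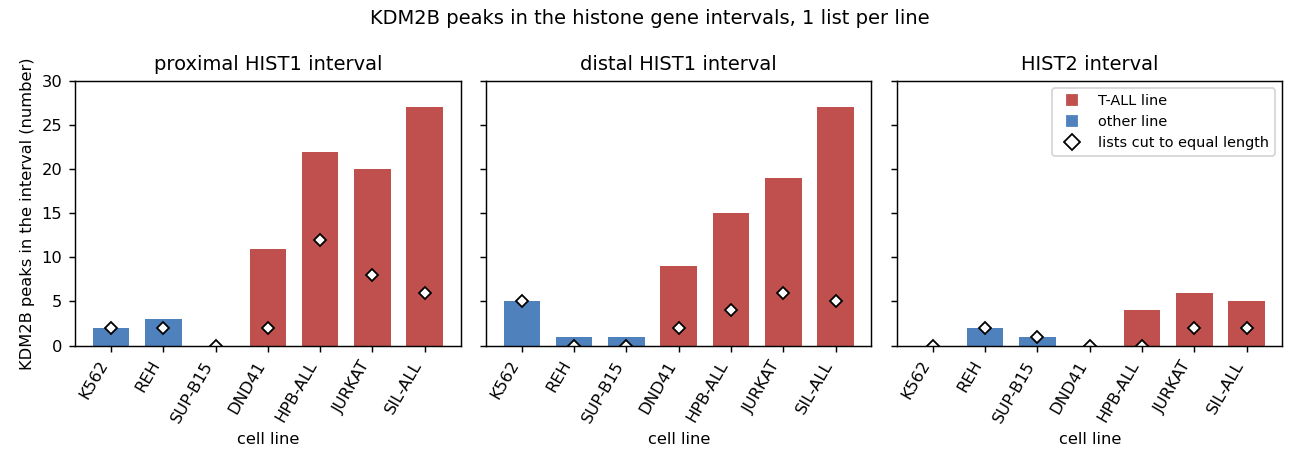
Number of KDM2B peaks (y axis) in each histone interval for the 7 cell lines (x axis). Bars are the deposited lists, 1 per line and so without error bars, and diamonds the lists cut to 5942 peaks. The 4 T-ALL bars of the proximal interval, 11 to 27 peaks, stand above the other lines' 0 to 3, and the diamond of DND41 is at 2.

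Chromosome 6 as a whole had a share of the lists that overlapped between T-ALL and other lines. It took 5.65 ± 0.645% of the peaks in T-ALL lines (SD, n = 4) and 5.39 ± 1.22% in the others (SD, n = 3). REH, at 4.59%, and SUP-B15, at 4.78%, lay below every T-ALL line (4.96% in DND41 to 6.23% in JURKAT). K562, at 6.80%, lay above them all. The HIST1 intervals make up 0.660% of the length of chromosome 6. SIL-ALL had 6.74% of its chromosome 6 peaks in them, HPB-ALL 4.71%, JURKAT 4.22% and DND41 2.70%. K562 had 1.73%, REH 1.07% and SUP-B15 0.278%. SUP-B15 was the only line below the share of length.

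Within the lines, peaks were denser in the proximal HIST1 interval than in the 770 kb between the HIST1 intervals wherever a line had any there, which leaves out SUP-B15. That stretch held no peak in DND41 and SUP-B15, 1 each in K562 and REH, 2 in JURKAT, 3 in HPB-ALL and 7 in SIL-ALL. The density was 90 peaks per Mb in the interval against 9.09 in the stretch between in SIL-ALL, 73.3 against 3.90 in HPB-ALL, 66.7 against 2.60 in JURKAT, 36.7 against 0 in DND41, 10 against 1.3 in REH and 6.67 against 1.3 in K562. The mean log2 ratio over lines, with 0.5 added to each count, was 3.37 ± 1.53 (SD, n = 7). The ratio uses the proximal peak numbers by which the clusters were picked, so it is a description and carries no test. SUP-B15 had no peak in either stretch, and its positive ratio comes from the added 0.5 and the unequal lengths alone. With 1 peak per Mb added to each density instead, which gives SUP-B15 a ratio of 1, the mean was 2.94 and 6 of 7 lines were above 0.

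The distal interval was denser than the same stretch in 6 of 7 lines, with REH the exception (1.2 against 1.3 peaks per Mb). SUP-B15 was among the 6 by 1 peak against none, at the same 1.2 peaks per Mb as REH. Its log2 ratio of 1.48 depends on the 0.5 added to each count. The mean log2 ratio was 1.99 ± 1.3 (SD, n = 7; two-sided exact sign-flip permutation over lines, p = 0.0312, adjusted p = 0.0438). This call did not hold with lists of equal length (1.29, exact permutation p = 0.0938), above a common score (1.5, p = 0.0625) or against all of chromosome 6 (1.37, p = 0.0625), nor without any line other than REH (p = 0.0625 each). Both HIST1 ratios use the same reference stretch. Part of it lies in band 6p22.2, whose peak numbers picked the clusters, so the distal ratio is not free of that choice.

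HIST2 was set against 130 kb on each side, where REH had 1 peak, SIL-ALL 2 and the other lines none. The densities in HIST2 were 46.2 peaks per Mb in JURKAT, 38.5 in SIL-ALL, 30.8 in HPB-ALL, 15.4 in REH and 7.69 in SUP-B15. Over the lines the log2 ratio averaged 2.48 ± 1.46 (SD, n = 7; exact sign-flip permutation p = 0.0156, adjusted p = 0.0365). K562 and DND41 had no peak in HIST2 or beside it. Their log2 ratios, 1 in each line, come from the amount added to each count and the unequal lengths alone. The mean and SD include both lines. A p-value of 0.0156 needs all 7 lines above 0, so nothing is read from this call. With 1 peak per Mb added to each density instead, 5 of 7 lines were above 0 and the call was lost (2.52, exact permutation p = 0.0625). The flank before HIST2 was empty in all lists: the nearest peak lay 525 kb before the interval, in HPB-ALL.

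**Figure D3:**
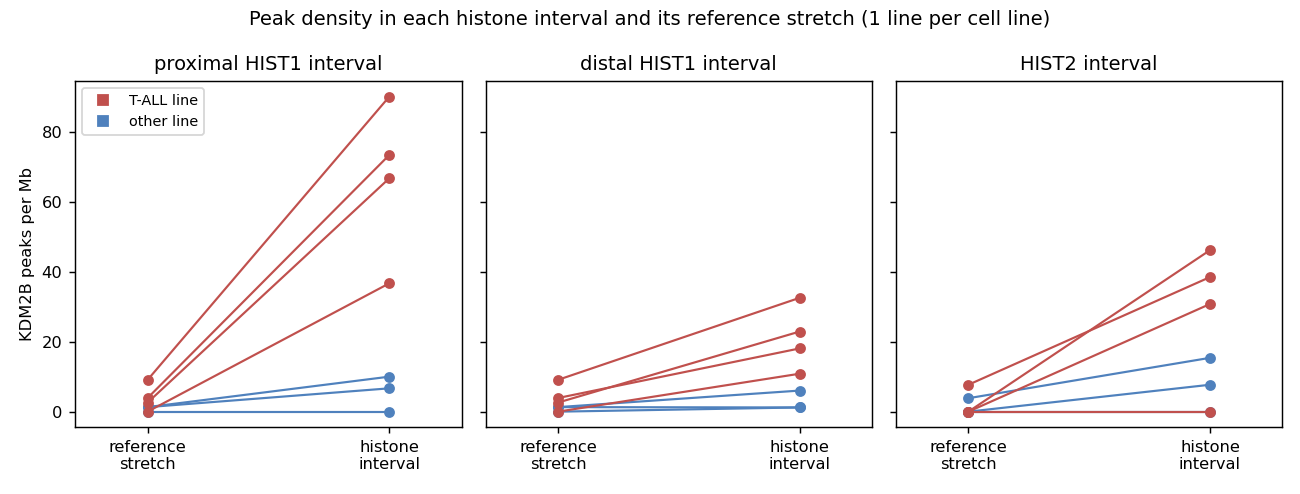
KDM2B peaks per Mb (y axis) in each histone interval and in its reference stretch (x axis); each joined pair of points is 1 cell line. In the proximal interval the T-ALL lines lie between 36.7 and 90 peaks per Mb, and K562 and DND41 coincide at 0 in the HIST2 panel.

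Few stretches of the genome were as dense as the proximal interval in the lists of HPB-ALL, SIL-ALL and JURKAT. Of 10332 windows of 300 kb, the length of the proximal interval, 14 held at least 22 peaks in HPB-ALL, 17 held at least 27 in SIL-ALL and 18 held at least 20 in JURKAT. In DND41, 226 windows (2.19%) held at least 11. In K562 and REH windows as rich were common, with 13.5% holding at least 2 and 10.2% holding at least 3. For the 830 kb of the distal interval the share of windows with as many peaks was 1.63% in SIL-ALL, 2.86% in JURKAT, 4.22% in HPB-ALL, 15.8% in DND41 and 10.8% in K562. It was 46.0% in REH and 43.9% in SUP-B15. These ranks describe the lists and are no test, and the proximal ones use the peak numbers by which the clusters were picked.

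The intervals have sharp borders in some places only. Before the proximal interval the nearest peak lay 6.69 kb outside, in HPB-ALL (score 83.4), and the first inside at 20.5 kb, also in HPB-ALL (score 332). After its end SIL-ALL had a peak 5.61 kb outside (score 95.4) and one 13.2 kb inside (score 94.4). The last distal peak lay 29.0 kb before the end, in DND41 (score 75), and the next peak of any list lay 205 kb after that end.

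The difference among the T-ALL lines in the proximal interval lay more in peaks per site than in sites. When peaks within 2 kb of each other, from any list, were counted as 1 site, the interval had 19 sites, of which DND41 had a peak in 10 and HPB-ALL, JURKAT and SIL-ALL in 13 each, against 11, 22, 20 and 27 peaks. REH had a peak in 3 of the 19 and K562 in 2. In the distal interval, also with 19 sites, the counts were 7 in DND41, 10 in HPB-ALL and JURKAT, 13 in SIL-ALL, 4 in K562 and 1 each in REH and SUP-B15. Of the 41 sites in all 3 intervals, 30 (73.2%) held peaks of at least 2 lines, against 58.6% of the sites in the genome, and 9 (22.0%) held peaks of all 4 T-ALL lines, against 19.1%.

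SIL-ALL had the longest runs of neighbouring peaks. It had 7 peaks within 2507 bp at 26156376 to 26158882 on chromosome 6, with scores of 85.7 to 270, and 6 peaks within 4506 bp at 27857991 to 27862496. A further run of 5 peaks spanned 3172 bp at 26196585 to 26199756, and all 5 HIST2 peaks of SIL-ALL fell within 2346 bp. HPB-ALL split sites too, with 4 peaks at 27839795 to 27841636 and 3 at 26233274 to 26235163. JURKAT had 4 peaks at 26020693 to 26021981, 4 at 27774955 to 27778794 and 4 in HIST2. DND41, K562, REH and SUP-B15 had no run of 3 peaks or more with steps of up to 2 kb.

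The T-ALL lines differed in the spacing of neighbouring peaks. The median distance between midpoints in the proximal interval was 1531 bp in SIL-ALL, 5598 bp in JURKAT, 9781 bp in HPB-ALL and 11482 bp in DND41. In their whole lists the medians were 11871, 16090, 21448 and 4726 bp, so of the T-ALL lines DND41 alone was more widely spaced in the histone interval than in its list. Distances under 1 kb made up 46.2% of the proximal distances in SIL-ALL (41.3% in the list), 31.6% in JURKAT (39.6%), 28.6% in HPB-ALL (38.1%) and 0% in DND41 (46.1%). The distances of a list are not independent, and no test was made.

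The peaks were spread along the proximal interval and lay mostly in the last 200 kb of the distal one in the T-ALL lines. By 100 kb, from the start of the proximal interval, DND41 had 6, 3 and 2 peaks, HPB-ALL 8, 6 and 8, JURKAT 8, 5 and 7, and SIL-ALL 6, 17 and 4. In the distal interval the last 200 kb held 18 of 27 peaks in SIL-ALL, 12 of 19 in JURKAT, 11 of 15 in HPB-ALL and 7 of 9 in DND41. Its first 100 kb held 4, 3, 2 and 1 peaks in the same order. In K562 1 of 5 distal peaks lay in the last 200 kb and none in the first 100 kb.

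**Figure D4:**
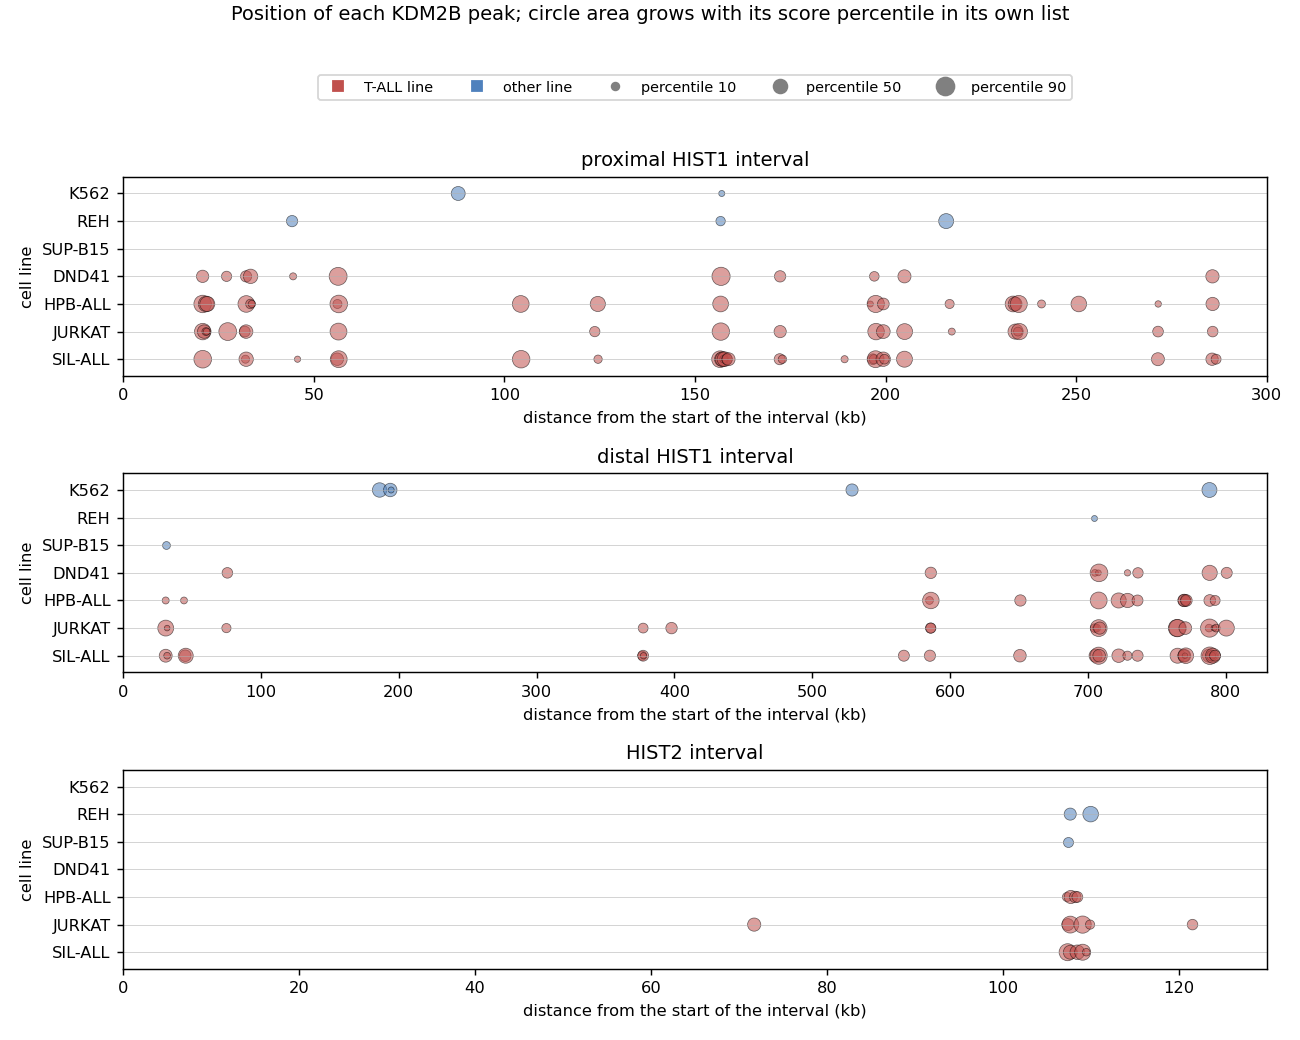
Position of each of the 180 peaks (x axis, distance from the start of its interval in kb) in each cell line (y axis), with circle area growing with the score percentile in its own list. T-ALL peaks line up in columns in the proximal interval and in the last 200 kb of the distal interval, and the HIST2 peaks of 5 lines gather near 107 kb.

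No histone region was common to all lines. The members merged with overlapping peaks into 99 regions, of which none held a peak of all 7 lines (2.44% of all merged regions did). Peaks of 2 or more lines were found in 37 regions (37.4%), against 41.8% of all regions, and peaks of all 4 T-ALL lines in 7 (7.07%), against 10.6%. These shares were near those of all regions or below them. In 5 regions (5.05%) all T-ALL lines and no other line had a peak, against 2.25%, and in 86 regions (86.9%) only T-ALL lines had one, against 56.1%. The last 2 counts use the contrast by which the clusters were picked, and nothing is read from them.

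The most widely shared region lay in the proximal interval (chromosome 6, 26156376 to 26157363) and held peaks of 6 lines, SUP-B15 being the one without. The best score was 391 in DND41, 270 in SIL-ALL, 191 in HPB-ALL, 168 in JURKAT, 54.4 in REH and 50.8 in K562. Within their own lists these stood at percentile 94.0, 78.1, 68.6, 85.3, 19.4 and 3.35. The site was thus among the upper part of the T-ALL lists and close to the lowest listed peaks in K562.

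Of the regions in all 4 T-ALL lines alone, the one at 26056077 to 26056752 had the highest mean percentile, 84.4. HPB-ALL scored 358 there, DND41 303, SIL-ALL 283 and JURKAT 140, all at percentile 79.4 or above. The region at 26020550 to 26021113 had the highest score of SIL-ALL in the set, 427 (percentile 88.1), with 332 in HPB-ALL, 125 in JURKAT and 82.5 in DND41. DND41 stood lowest there, at percentile 38.8. The other proximal regions of this kind were at 26032019 to 26032473 (mean percentile 53.1) and 26285464 to 26285902 (39.8).

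In the distal interval the widest sharing was at 27857975 to 27858775, with peaks of K562 and the 4 T-ALL lines. SIL-ALL scored 377 there, JURKAT 260, DND41 121, HPB-ALL 107 and K562 105. This was the best histone peak of both K562 (percentile 60.9) and JURKAT (percentile 93.4), although their scores differed. The region at 27777639 to 27778404 held peaks of the 4 T-ALL lines alone, with scores of 319 in SIL-ALL, 261 in HPB-ALL, 256 in DND41 and 137 in JURKAT. The region at 27100731 to 27100994 held the only distal peak of SUP-B15 (score 53.7), with 123 in SIL-ALL, 110 in JURKAT and 83.4 in HPB-ALL. Those at 27656008 to 27656294 and 27798727 to 27798998 each held peaks of 3 T-ALL lines.

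The listed HIST2 peaks centred on 1 site. How reads that match several near-identical gene copies were placed was not examined here, which limits what a stretch without a peak can show. The region at 149857191 to 149857819 on chromosome 1 held peaks of REH (score 60.4), SUP-B15 (58.7), HPB-ALL (127), JURKAT (140) and SIL-ALL (302). Of the 18 HIST2 peaks 16 lay between 149857191 and 149860097, and the other 2 were of JURKAT. Beside it, the region at 149858891 to 149859236 held peaks of JURKAT (156) and SIL-ALL (215), and that at 149859830 to 149860097 peaks of REH (81.3) and JURKAT (59.0). The best histone peaks of REH and SUP-B15 were in HIST2, at percentiles 66.7 and 23.1.

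Regions of a single line were counted against the same count over each whole list. Peaks of 1 run that do not overlap are separate regions, so such a region can lie in a site that several lines share. The SIL-ALL regions from 26157426 to 26158882 fell in the 2 kb site at 26156376 to 26158882, which held peaks of 6 lines. Of the 7 histone regions of K562 5 (71.4%, Wilson 95% interval 35.9 to 91.8%) held no peak of another line, against 29.2% of its regions in the genome. Among them were 3 in the distal interval between 27255815 and 27264676. REH had 2 of 6 regions to itself (36.8% in the genome), and SUP-B15 none of 2 (25.4%). Of the T-ALL lines, DND41 had 5 of 19 (26.3%, against 26.8%) and HPB-ALL 11 of 38 (28.9%, against 24.3%), both near the level of their lists. JURKAT had 16 of 41 (39.0%, interval 25.7 to 54.3%, against 27.5%) and SIL-ALL 23 of 52 (44.2%, interval 31.6 to 57.7%, against 30.8%). These intervals cover counting error only and treat neighbouring regions as independent, so nothing is read from them, and no test was made.

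Overlap between the T-ALL lines was below the level of the list in each of them, and closest to it in DND41. In DND41 15 of 20 members (75.0%) overlapped a peak of another T-ALL line, against 76.3% of its list, and in HPB-ALL 30 of 41 (73.2%) against 77.4%. In JURKAT the count was 27 of 45 (60%, Wilson 95% interval 45.5 to 73.0%) against 71.8%, and in SIL-ALL 36 of 59 (61.0%, 48.3 to 72.4%) against 71.6%. These intervals cover counting error only and treat neighbouring peaks as independent, so nothing is read from them. The difference from the lists was not tested.

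The histone peaks ranked in the lower part of every list by their median. The median score percentile of the members, ranked in their own list, was 48.0 in K562, 40.8 in SIL-ALL, 39.0 in HPB-ALL, 37.8 in JURKAT, 34.2 in REH, 31.3 in DND41 and, from 2 peaks, 17.1 in SUP-B15. All 7 lay below 50, with a mean difference of -14.6 ± 9.66 percentile points from it (SD, n = 7; two-sided exact sign-flip permutation p = 0.0156, the smallest it can give, adjusted p = 0.0365). The members include the proximal peaks whose number picked the clusters, so this test is not free of that choice. Its adjustment counts tests from which nothing is read, so the adjusted p-value is not read as a result. Members above percentile 90 numbered 2 in DND41 and 1 in JURKAT, and the other lists had none. With lists of equal length, which drop the low-ranked peaks of the longer lists, the mean difference was -8.48 points and the call was lost (exact permutation p = 0.344). Above a common score it was -17.7 points in the 6 lines with members left (exact permutation p = 0.0625).

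The clusters differed in rank within a line. In HPB-ALL the median percentile was 62.0 in the proximal interval, above the middle of its list, against 34.3 in the distal interval and 29.9 in HIST2. In JURKAT these were 48.1, 24.0 and 40.9, and in SIL-ALL 40.3, 34.0 and 56.7. DND41 had 38.8 in the proximal and 26.7 in the distal interval. The proximal median was thus above the distal one in all 4 T-ALL lines and in REH (31.2 from 3 peaks against 2.95 from 1), whereas in K562, with 2 and 5 peaks, it was below (27.7 against 48.0).

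**Figure D5:**
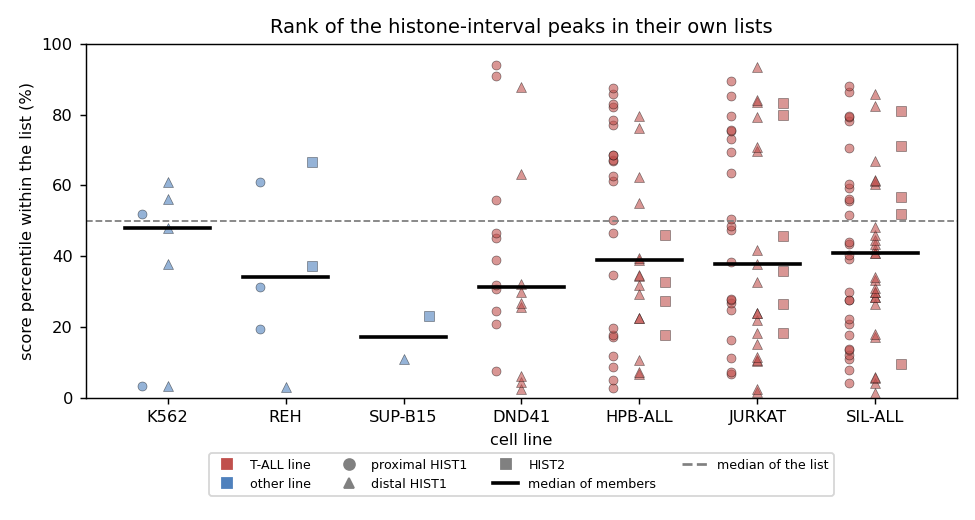
Score percentile within its own list (y axis, %) of each histone-interval peak in the 7 cell lines (x axis), with 1 symbol per interval. Thick bars are the medians of the members, 17.1 to 48.0, all below the dashed line at 50.

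The histone peaks were also narrower than the rest of their lists in 6 of 7 lines. The median width was 199 bp in HPB-ALL (253 bp in the list), 188 bp in JURKAT (240 bp), 173 bp in SIL-ALL (223 bp), 507 bp in K562 (552 bp), 180 bp in REH (213 bp) and 253 bp in SUP-B15 (350 bp). DND41 went the other way, with 221 bp against 213 bp. The mean log2 ratio was -0.26 ± 0.18 (SD, n = 7; exact sign-flip permutation p = 0.0312, adjusted p = 0.0438). As for the percentile, the test is not free of the choice of clusters and its adjusted p-value is not read as a result. The call was lost with lists of equal length (-0.18, exact permutation p = 0.234), above a common score (-0.23, p = 0.0938) and without any line other than DND41 (p = 0.0625 each). In base pairs, the members covered 2.09% of the proximal interval in HPB-ALL, 1.98% in SIL-ALL, 1.65% in JURKAT and 1.11% in DND41, and 0.320% in K562 and 0.197% in REH.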

How the data were processed

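KDM2B ChIP-seq libraries of 7 leukaemia cell lines were used, 1 deposited peak list each, and the 5 input libraries were not analysed here. The tools are FastQC 0.10.1 and Bowtie 1.1.1 with the hg19 build, per the submitters' processing notes. Per the file contents each peak name begins with MACS. Not given in the sources used here are the caller's version, threshold and control, also for DND41 and JURKAT, which have no labelled input. The score is the authors' deposited value per peak, with no unit stated, and was used to rank or filter peaks. Percentiles are the share of a list's peaks at or below a score. Starts, deposited from 0, are printed from 1. Bands and chromosome lengths are those of the hg19 table of the R package circlize.

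Peaks overlapping an interval by 1 bp were members, and peaks of all lists overlapping by 1 bp were merged into regions. Named regions were the 5 of each HIST1 interval and the 3 of HIST2 with the most lines, ties by mean percentile, and the best member of each line. Runs, borders and own regions were added after values were seen. Members, intervals and lists were chosen with earlier results of these data known. Tests were exact permutations over lines (smallest p 0.0286 over 35 ways, or 0.0156 by sign flips), with Benjamini-Hochberg adjustment over 7 tests. That of proximal density is among the 7 but is not reported, since its counts chose the clusters. Counting and tests were checked on simulated lists. Computations used Python 3.11.15, numpy 2.4.6, pandas 2.3.3, scipy 1.17.1 and matplotlib 3.10.9. Alternatives are given in the closing section.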

Additional observations from a re-analysis of the deposited data

Results flagged for a closer look

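The width of the DND41 members stood far from that of the other T-ALL lines. Their median width was 1.04 times that of the DND41 list, next to 0.787 in HPB-ALL and down to 0.776 in SIL-ALL. It was 1 of 11 values per line examined over the 7 lines and over the 4 T-ALL lines, 22 groups in all, of which chance flags about 1.1.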

How the results depend on the processing

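There were 111 alternative values. A call was lost in 20 with its direction unchanged, 4 values without a test moved, and 0 changed sign. The other 87 kept their call or, without a test, stayed close. Close meant within the SD of the T-ALL lines for the proximal number and within 1.5-fold for shared regions. Among the 87 the HIST2 difference in share fell to 0 with lists of equal length. The proximal density ratio, which carries no test, is also counted there. So are calls of the HIST2 density ratio that include lines without a peak in HIST2 or beside it. With lists of equal length the proximal difference was 5.67 peaks, the distal log2 density ratio 1.29, the members' percentile -8.48 points from 50, their log2 width ratio -0.18, and 12 of 36 regions, in place of 37 of 99, were shared by lines. A common score gave 1.5 for the distal ratio, -17.7 points for the percentile and -0.23 for the width. The distal ratio was 1.37 against all of chromosome 6, and the HIST2 ratio 2.52 with 1 peak per Mb added to each density. With each line left out, the distal ratio ranged from 1.63 to 2.34, the width from -0.32 to -0.23 and the shared regions from 24 to 37, with 24 without HPB-ALL or SIL-ALL. With 6 lines the sign-flip test needs every line on 1 side. With a line left out, the distal call was kept only without REH and the width call only without DND41. Each of these was the line on the other side. The cause of the losses was not tested. The sites within 2 kb, the added density and the shared regions with a line left out were chosen after seeing the data. Depth is unknown and limits every count of 0. Interval and reference, or members and list, were compared within each line. No pairing of samples by replicate number was made, as a line has 1 KDM2B library.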
